A study of Homo sapiens with 6 samples.

Results

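The 10 genes described here encode the iron regulatory proteins (ACO1, IREB2) and proteins of iron uptake (TFRC), storage and release from ferritin (FTH1, FTL, NCOA4), export (SLC40A1, HEPH) and mitochondrial import (SLC25A28, SLC25A37). They were chosen by symbol from the 62710 genes of the FPKM table, where FPKM counts the sequenced fragments of a gene relative to its length and to the size of that library. RNA was sequenced from HT1080, an established human fibrosarcoma cell line. The 3 libraries titled con are called untreated here. The other 3 came from cells treated with 20 ng/mL human IFNβ for 24 h. All cells grew in high-glucose DMEM with serum and antibiotics, and no group carried a genetic change that the labels name. The study says of its in vitro work in general that it used independent biological replicates, but the labels do not say that these libraries came from separate cultures. If they did not, p-values measure only the spread between these libraries, which may be technical.

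Cells keep iron in balance by controlling mRNAs that carry an iron responsive element (IRE), a short hairpin in an untranslated region. ACO1 encodes iron regulatory protein 1, which acts as cytosolic aconitase while it holds an iron-sulfur cluster and binds IREs when it does not, and IREB2 encodes its paralog, which is degraded when iron is plentiful. Binding in the 5′ untranslated region blocks translation, as for the ferritin subunits FTH1 and FTL and the exporter SLC40A1, whereas binding in the 3′ untranslated region of TFRC, the transferrin receptor, protects the mRNA from decay. IFNβ is a type I interferon that induces a broad antiviral gene programme, and HT1080 is a line often used to study ferroptosis, an iron-dependent form of cell death.

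The libraries held between 22848104 and 32915500 fragments. IFIT1, ISG15 and MX1, genes induced by interferon, all rose, by between 7.09 and 8.67 on the log2 scale. The mesenchymal markers VIM, FN1, CDH2 and CD44 had means between 22.4 and 399 FPKM in untreated cells, S100A4 at 2.68 FPKM and NT5E at 0.101 FPKM. Of these 6 markers, 3 were called higher and 2 lower after IFNβ (83.3% called, against 32.7% of all genes tested). NT5E changed most, by 2.15 on the log2 scale to 0.799 FPKM. Of 14 markers of other cell types, 12 averaged under 0.1 FPKM and were not tested. CD163, a macrophage gene, was called higher at 0.0499 FPKM in untreated and 0.192 FPKM in treated cells, and PECAM1 was not called. CD163 passed the limit of 0.1 FPKM only through its treated libraries.

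The IREs are shown because the members that carry one divide by where the element lies. Transcripts of GENCODE release 29 were searched for the loop CAGTG plus any base, closed by a stem of 5 Watson-Crick or G-U pairs with a C before the stem. The stretches below run 5′ to 3′ on the transcript strand with T for U, and capitals mark the loop of 6 bases. They lie in the 5′ untranslated regions of FTH1 (GRCh38 chr11:61967574-61967602, minus strand), FTL (chr19:48965335-48965363, plus strand) and SLC40A1 (chr2:189580661-189580689, minus strand).
FTH1: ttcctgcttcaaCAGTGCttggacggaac
FTL: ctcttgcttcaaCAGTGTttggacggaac
SLC40A1: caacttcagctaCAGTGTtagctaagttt

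The 3′ untranslated region of TFRC held 4 matches within 545 bases of chromosome 3, minus strand, at chr3:196050979-196051007, chr3:196050575-196050603, chr3:196050510-196050538 and chr3:196050463-196050491, in the order of the transcript.
TFRC site 1: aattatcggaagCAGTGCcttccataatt
TFRC site 2: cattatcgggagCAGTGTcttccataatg
TFRC site 3: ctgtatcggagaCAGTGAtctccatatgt
TFRC site 4: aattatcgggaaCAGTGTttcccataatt

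The search found no match in ACO1, IREB2, NCOA4, SLC25A28, SLC25A37 or HEPH, which says only that these letters with such a stem are not in their annotated untranslated regions. Of all genes with an annotated region, 38 of 19201 (0.198%) held a match in the 5′ and 164 of 19445 (0.843%) in the 3′ untranslated region. A match is a description of the letters and not a tested element.

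IFNβ-treated and untreated libraries were compared by limma on log2(FPKM + 0.1) over the 20716 genes with a mean of at least 0.1 FPKM, and a gene was called at a Benjamini-Hochberg adjusted p under 0.05. All 10 members passed this filter. Of these, 3 were called higher (SLC25A28, HEPH and NCOA4) and 2 lower (ACO1 and TFRC), and 5 were not called. Over all genes tested, 32.7% were called, 15.2% higher and 17.5% lower, so a call by itself was common after this treatment. That share covers genes of every level above the filter, and only 11996 of the 20716 averaged at least 1 FPKM. It was not computed for protein-coding genes or genes of like level, so a higher share in a gene list is not read as an excess. ACO1, SLC25A28 and HEPH also changed at least 2-fold and are termed differentially expressed genes (DEGs), a class that held 4.22% of all genes tested. The values of the groups did not overlap in 7 of the 10 members, against 46.6% of all genes tested. The members were chosen with earlier results of these data known, and the study had already selected ACO1 and SLC25A28 from these libraries. Neither the DEG count nor the count without overlap is therefore read as an excess among the members. The median log2 fold change was 0.02 over the members and 0.00017 over all genes tested.

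**Figure D1:**
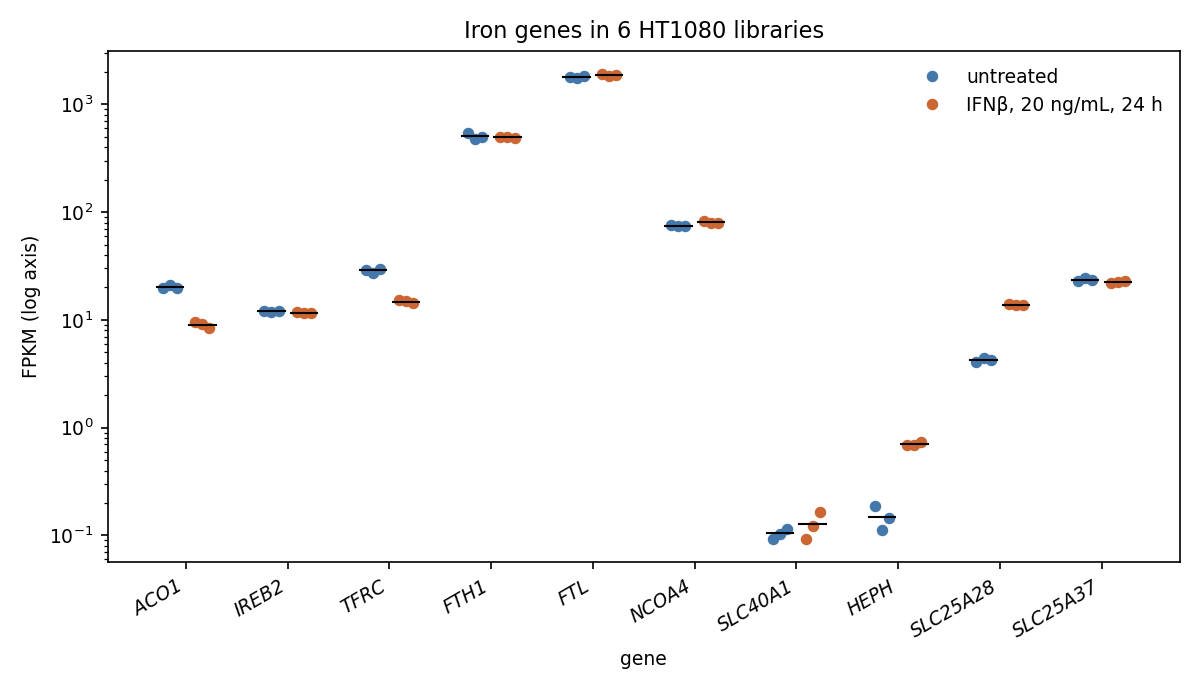
FPKM of the 10 genes (log axis) in each library, with untreated libraries in blue, IFNβ-treated libraries in orange and a black line at each group mean. The points of ACO1 and TFRC lie lower and those of SLC25A28 and HEPH higher in all 3 treated libraries, while IREB2, FTH1 and FTL stay near their untreated levels.

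Among the sensors, ACO1 mRNA fell and that of its paralog was not called. ACO1 (ENSG00000122729, chr9:32384603-32454769, plus strand) was measured at 19.8, 20.9 and 19.6 FPKM in untreated libraries and at 9.50, 9.11 and 8.32 FPKM in IFNβ-treated libraries. Every treated library lay below every untreated one, and the distance between the groups was larger than the spread within either. The mean was 20.1 ± 0.68 FPKM (SD, n = 3) in untreated and 8.98 ± 0.599 FPKM (SD, n = 3) in treated cells. This is a log2 fold change of -1.16 (SE 0.053, 95% interval -1.28 to -1.03, limma adjusted p = 2.3e-05). Between 1719 and 4866 fragments of ACO1 per library were recovered from the FPKM. In bulk RNA, fewer cells that express a gene and less of its RNA per cell cannot be told apart. ACO1 and SLC25A28 are among the ferroptosis genes that the study selected from these same libraries, so their directions are not independent evidence.

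IREB2 (ENSG00000136381, chr15:78437431-78501456, plus strand), which encodes iron regulatory protein 2, was at 12.15, 11.92 and 12.02 FPKM in untreated and at 11.74, 11.59 and 11.63 FPKM in treated libraries. The groups did not overlap, but they stood less than 1 FPKM apart. The log2 fold change was -0.05 (95% interval -0.10 to 0.0076, limma adjusted p = 0.17), so the interval excludes a fall of the size seen in ACO1. FBXL5, the iron-sensing subunit of the ubiquitin ligase that removes the IREB2 protein, was at 18.2 ± 0.373 FPKM (SD, n = 3) in untreated and 18.9 ± 0.59 FPKM (SD, n = 3) in treated cells and was not called (limma adjusted p = 0.24). CIAO2A, an assembly factor for the iron-sulfur cluster of the ACO1 protein, was at 26.3 ± 1.58 and 23.4 ± 0.938 FPKM (SD, n = 3 each) and missed the threshold at a limma adjusted p of 0.051.

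Within each library, the ratio of ACO1 to IREB2 was taken directly. It was 1.63, 1.74 and 1.62 in untreated and 0.811, 0.788 and 0.718 in IFNβ-treated cells, so ACO1 was the more abundant of the paralogs per length before treatment and the less abundant after it. The log2 ratio differed by -1.11 between treated and untreated libraries (exact permutation test, two-sided, p = 0.1, the smallest p that 3 libraries against 3 can give).

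The transferrin receptor mRNA also fell. TFRC (ENSG00000072274, chr3:196027183-196082189, minus strand) was at 29.3, 27.0 and 29.8 FPKM in untreated and at 15.35, 14.81 and 14.23 FPKM in treated libraries. The groups were far apart, and the highest treated value was below the lowest untreated one. Means were 28.7 ± 1.49 FPKM and 14.8 ± 0.563 FPKM (SD, n = 3 each), a log2 fold change of -0.95 (SE 0.046, 95% interval -1.06 to -0.84, limma adjusted p = 2.9e-05). TFRC lies just under the 2-fold limit of a DEG and was not one under any of 16 alternative settings. TFRC is also known to follow cell growth. Of 12 proliferation genes, 8 were called lower and 1 higher (75% called, against 32.7% of all genes tested), with log2 fold changes between -0.54 and 0.18 and a median of -0.23, and their part in the fall of TFRC was not tested.

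Of 10 listed genes of iron uptake, TFRC included, 7 were tested. Of these, 4 were called lower and none higher by limma (57.1% called, against 32.7% of all genes tested), with a median log2 fold change of -0.26. Besides TFRC the called genes were STEAP3, which reduces iron in the endosome after transferrin is taken up, and SLC39A14 and SLC39A8, metal transporters that also carry iron. Their log2 fold changes were -0.50 for STEAP3, -0.48 for SLC39A14 and -0.26 for SLC39A8. SLC11A2, the transporter that moves iron out of the endosome, was at 3.63 ± 0.0965 and 3.48 ± 0.113 FPKM (SD, n = 3 each) and was not called. STEAP2 and CYBRD1, which reduce iron at membranes, were not called either, with log2 fold changes of 0.05 each. TFR2, TF and LCN2 were below the filter.

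The ferritin mRNAs, which carry the same kind of hairpin at the other end of the message, were the most abundant of the members and were not called. FTL (ENSG00000087086, chr19:48965301-48966878, plus strand), the light subunit, was at 1789, 1742 and 1838 FPKM in untreated and at 1911, 1844 and 1861 FPKM in treated libraries. The lowest treated library was just above the highest untreated one, and the log2 fold change was 0.07 (95% interval -0.0032 to 0.13, limma adjusted p = 0.14). FTL passed the threshold under 2 of the alternatives, rescaling by median ratio (log2 fold change 0.10, adjusted p = 0.038) and limma-voom on recovered fragments (0.07, adjusted p = 0.0018).

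FTH1 (ENSG00000167996, chr11:61959718-61967660, minus strand), the heavy subunit that oxidises iron for storage, was at 546.7, 477.5 and 500.1 FPKM in untreated and at 502.1, 502.3 and 483.9 FPKM in treated libraries. The treated values lay inside the untreated range, with a log2 fold change of -0.03 (95% interval -0.15 to 0.09, limma adjusted p = 0.68), and the sign of that value turns when the first untreated library is left out (0.02). Exons of BEST1 on the opposite strand cover 62.4% of the FTH1 exons. BEST1 itself was given at most 0.00997 FPKM as a group mean. As the use of strand is not given, that value does not show how reads in the shared exons were assigned. The table also lists 25 FTH1 pseudogenes and 16 FTL pseudogenes. They held between 0.131% and 0.221% (FTH1) and between 0.0267% and 0.0598% (FTL) of the fragments of their family in a library. How reads shared with these copies were assigned is not given, so the ferritin levels are uncertain by an amount these shares do not show.

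NCOA4 (ENSG00000266412, chr10:46005088-46030714, minus strand), the receptor that delivers ferritin to the lysosome for degradation, rose slightly. It was at 76.4, 73.8 and 74.0 FPKM in untreated and at 81.8, 80.0 and 79.9 FPKM in treated libraries. All treated libraries were above all untreated ones, but by a small margin compared with the level of the gene. The log2 fold change was 0.11 (SE 0.021, limma adjusted p = 0.0087), and the call was lost in a fit without an intensity trend (adjusted p = 0.075). PCBP2, an iron chaperone that loads ferritin, fell by 0.23 on the log2 scale (limma adjusted p = 0.0034), while PCBP1 was not called. Over the storage list, 5 of 6 genes were tested, of which 1 was called higher and 1 lower (40% called, against 32.7% of all genes tested).

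Set against each other, the ratio of FTH1 to FTL was 0.306, 0.274 and 0.272 in untreated and 0.263, 0.272 and 0.260 in treated libraries. The log2 ratio differed by -0.10, and the groups overlapped narrowly (exact permutation test, two-sided, p = 0.2). Without the first untreated library that difference was -0.04. The ratio of TFRC to FTH1, uptake against storage, was 0.0538, 0.0568 and 0.0598 in untreated and 0.0308, 0.0297 and 0.0296 in treated libraries. Here the groups were clearly separate, and the log2 ratio differed by -0.92 (exact permutation test, two-sided, p = 0.1). Over the 4 ratios compared, Benjamini-Hochberg adjustment gave 0.133 for the 3 with the smallest possible p and 0.2 for FTH1 to FTL.

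**Figure D2:**
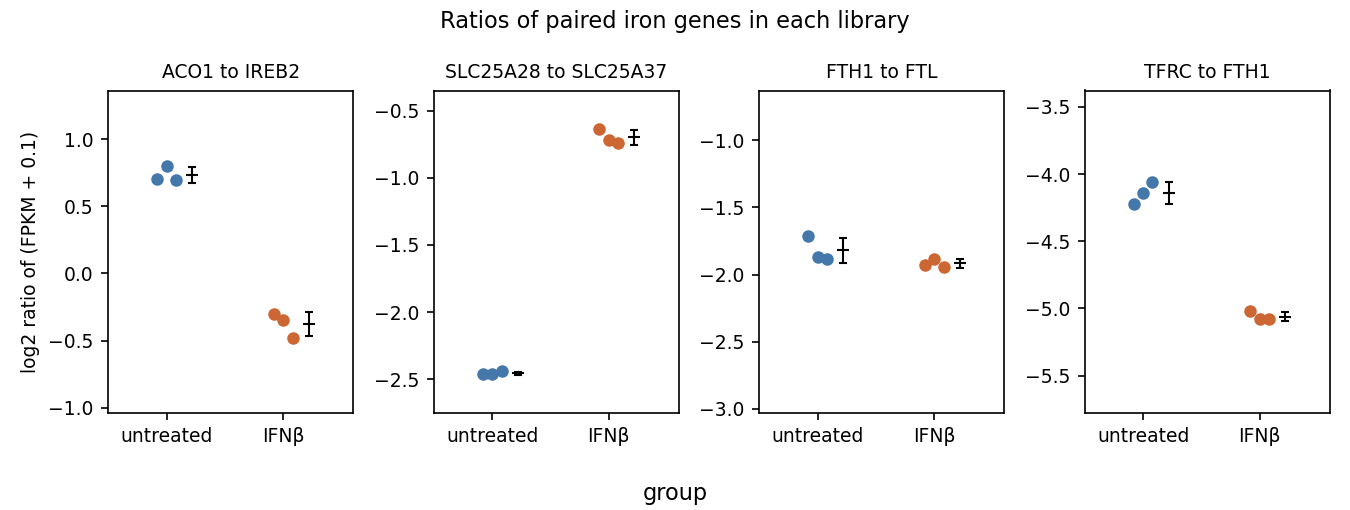
Log2 ratio of (FPKM + 0.1) of 4 gene pairs in each library, with untreated libraries in blue, IFNβ-treated libraries in orange and the mean ± SD in black beside the points. Each panel spans the same height on the log2 scale, and the groups stand apart by -1.11 for ACO1 to IREB2, 1.76 for SLC25A28 to SLC25A37 and -0.92 for TFRC to FTH1, against -0.10 for FTH1 to FTL.

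The export genes were the least expressed members. SLC40A1 (ENSG00000138449, chr2:189560579-189583758, minus strand), which encodes ferroportin, the iron exporter of the plasma membrane, was at 0.093, 0.10 and 0.12 FPKM in untreated and at 0.092, 0.12 and 0.16 FPKM in treated libraries. These values overlapped and rest on between 9 and 20 recovered fragments per library. The log2 fold change was 0.14, with a 95% interval from -0.49 to 0.77 (limma adjusted p = 0.74). This interval is wide, so neither a rise nor a fall within it can be excluded.

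HEPH (ENSG00000089472, chrX:66162549-66268867, plus strand) encodes hephaestin, a ferroxidase that oxidises iron as it leaves the cell. It was at 0.19, 0.11 and 0.14 FPKM in untreated and at 0.69, 0.69 and 0.73 FPKM in treated libraries. The groups did not overlap, although even the treated level stayed under 1 FPKM. Fragments recovered from these values were at least 33 to 47 in untreated and at least 170 to 211 in treated libraries. The log2 fold change was 1.71 (SE 0.179, 95% interval 1.27 to 2.14, limma adjusted p = 7e-04). Because the level is low, its size depends on the pseudocount, from 0.57 with a pseudocount of 1 to 2.20 with 0.01. CP, HAMP and HJV, the other listed export genes, were below the filter.

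The mitochondrial importers of iron, a second pair of paralogs, also differed from each other. SLC25A28 (ENSG00000155287, chr10:99610522-99620609, minus strand), or mitoferrin 2, was at 4.04, 4.41 and 4.20 FPKM in untreated and at 14.0, 13.6 and 13.7 FPKM in treated libraries. Treated libraries were all more than 3 times as high as the mean of the untreated ones, with little spread in either group. The means were 4.22 ± 0.188 and 13.8 ± 0.18 FPKM (SD, n = 3 each), a log2 fold change of 1.69 (SE 0.039, 95% interval 1.59 to 1.78, limma adjusted p = 8.2e-07). Among the members it had the smallest adjusted p.

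SLC25A37 (ENSG00000147454, chr8:23528805-23575463, plus strand), or mitoferrin 1, the form known from red cell precursors, was at 22.7, 24.7 and 23.2 FPKM in untreated and at 21.8, 22.5 and 23.0 FPKM in treated libraries. The groups overlapped, and the log2 fold change was -0.07 (95% interval -0.16 to 0.02, limma adjusted p = 0.22). The erythroid markers HBB and GATA1 averaged under 0.1 FPKM. The ratio of SLC25A28 to SLC25A37 was 0.181, 0.182 and 0.184 in untreated and 0.644, 0.608 and 0.599 in treated libraries, a difference of 1.76 on the log2 scale (exact permutation test, two-sided, p = 0.1, the smallest possible).

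**Figure D3:**
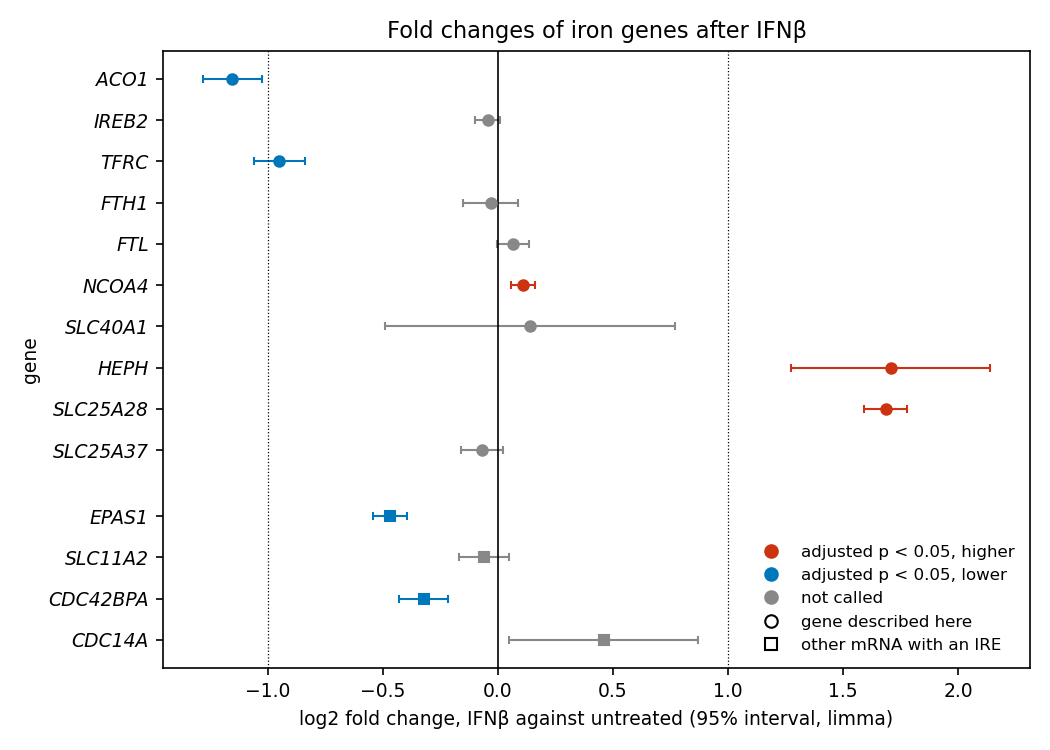
Log2 fold change of the 10 genes (circles) and of 4 other mRNAs known to carry an IRE (squares), IFNβ-treated against untreated, with 95% intervals from limma and dotted lines at the 2-fold limits. ACO1 lies wholly beyond the lower limit and SLC25A28 and HEPH beyond the upper one, the interval of TFRC crosses the lower limit, and the intervals of IREB2, FTH1, FTL and SLC25A37 include 0.

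The mRNAs known to carry an IRE were then set beside ACO1. With the element in the 5′ untranslated region, 4 of 5 listed genes were tested. Of these, 1 was called lower and none higher (25% called, against 32.7% of all genes tested). That gene was EPAS1, which encodes the hypoxia-inducible factor HIF2α, at 16.3 ± 0.268 FPKM in untreated and 11.7 ± 0.356 FPKM in treated cells (SD, n = 3 each; log2 fold change -0.47, limma adjusted p = 8.5e-05). ALAS2, the erythroid enzyme of heme synthesis, was below the filter. With the element in the 3′ untranslated region, 4 genes were tested. TFRC and CDC42BPA, a cytoskeletal kinase, were called lower (50% called, against 32.7% of all genes tested). CDC42BPA had a log2 fold change of -0.32 (limma adjusted p = 0.0021). SLC11A2 and CDC14A, a phosphatase, were not called, with log2 fold changes of -0.06 and 0.46. The search for the hairpin found a match in CDC14A and none in EPAS1, SLC11A2 or CDC42BPA, which are listed as background knowledge of such elements. Of all genes tested, 12 of the 26 with a 5′ match (46.2%) and 71 of the 132 with a 3′ match (53.8%) were called, against 32.7% of all genes tested. Only genes with an annotated untranslated region can hold a match, and 12563 (5′) and 12698 (3′) of the 20716 tested genes had one. The share called among those genes was not computed, so these percentages are not read as an excess for genes with a match. These are mRNA levels, and translation of the 5′ group was not measured.

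Across the wider iron pathway, most changes were small. Of 66 listed genes, the members included, 57 were tested, and 5 were called higher, 21 lower and 31 were not called. The median log2 fold change was -0.10, and ACO1, SLC25A28 and HEPH were the only DEGs among them. Leaving out the members, 2 of 47 genes tested were called higher and 19 lower, that is 44.7% called against 32.7% of all genes. The listed genes are protein coding and mostly above 1 FPKM, unlike many of all genes tested. These shares therefore do not show an excess for iron genes. Over all genes tested, 17.5% were called lower and 15.2% higher, and the median over those averaging at least 1 FPKM was -0.034. The split between lower and higher calls was not computed for genes of like level, so it is not read as particular to iron genes.

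In mitochondrial iron and iron-sulfur cluster assembly, 16 genes were tested, of which SLC25A28 alone was called higher and 8 were called lower (56.2% called, against 32.7% of all genes tested). The largest fall was that of LYRM4, a subunit of the complex that builds the cluster, from 5.11 ± 0.346 to 3.88 ± 0.231 FPKM (SD, n = 3 each; log2 fold change -0.39, limma adjusted p = 0.0057). SLC25A28 therefore moved opposite to every other called gene of its list. Cytosolic iron-sulfur assembly is the source of the cluster in the ACO1 protein. There 3 of 9 genes were called lower and 1 higher (44.4% called, against 32.7% of all genes tested). CIAPIN1 fell by 0.29 and its electron donor NDOR1 rose by 0.30 on the log2 scale (limma adjusted p = 2.1e-04 and 0.0018).

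Among the heme genes, 15 were tested, with 4 called lower and 1 higher, a share (33.3%) near that of all genes tested (32.7%). HMOX1, the enzyme that breaks down heme and releases its iron, fell from 45.1 ± 4.75 to 27.5 ± 2.1 FPKM (SD, n = 3 each; log2 fold change -0.71, limma adjusted p = 0.0015). BLVRB, a biliverdin reductase that acts after it, rose from 13.5 ± 0.181 to 18.4 ± 1.22 FPKM (SD, n = 3 each; log2 fold change 0.44, limma adjusted p = 7.7e-04).

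**Figure D4:**
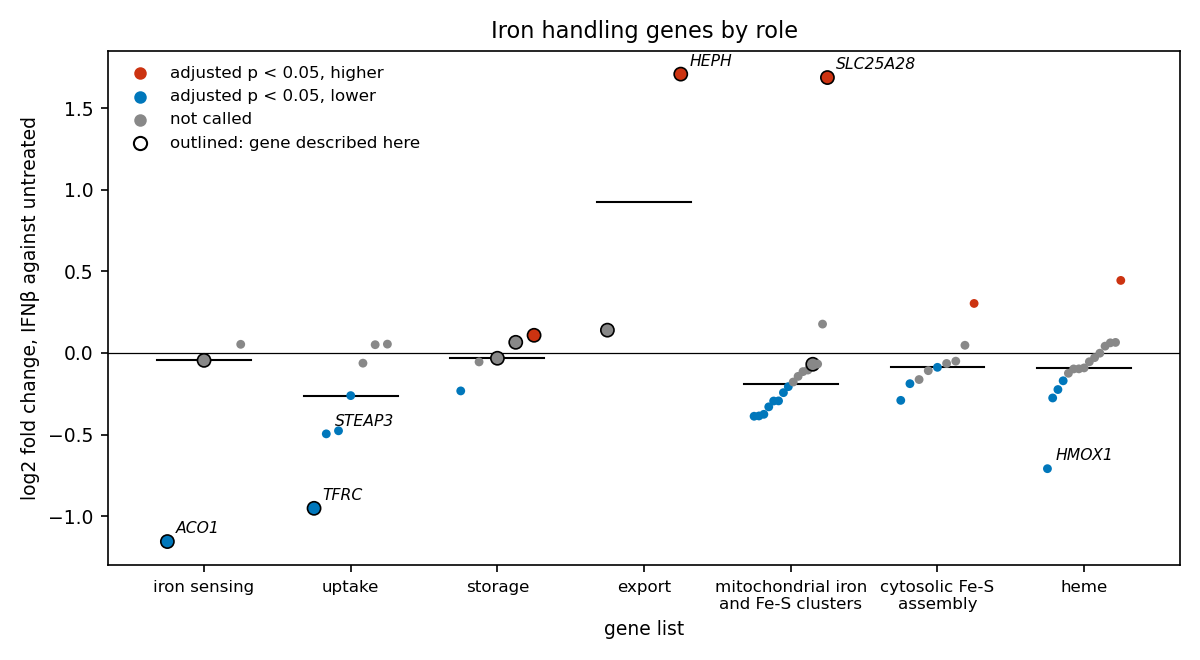
Log2 fold change of each tested gene, IFNβ-treated against untreated, in 7 iron handling lists, with genes called higher in red, called lower in blue and not called in grey, the described genes outlined and a black line at each list's median. HEPH and SLC25A28 stand above 1.5, ACO1 and TFRC lie lowest, and 21 of the 57 genes are called lower against 5 called higher. Over all genes tested, 17.5% were called lower and 15.2% higher.

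Promoters were searched because SLC25A28 and HEPH rose with interferon treatment. RefSeq windows on GRCh38.p14, from 250 bases before to 50 after a start site, were found for 8 of the 10 members (12 windows), and none for FTH1 and SLC25A37. Both strands were searched for the core of an interferon-stimulated response element (GAAA, any 2 bases, GAAA), which 3.57% of all 35116 windows hold, and of a gamma-activated site (TTC, any 3 bases, GAA), which 7.66% hold. A single match was found, to the first motif, in 1 of the 3 windows of HEPH, between 239 and 230 bases before the start. The stretch at chrX:66163997-66164056 is given on the plus strand, with the match, which reads as the motif on the other strand, in capitals.
HEPH: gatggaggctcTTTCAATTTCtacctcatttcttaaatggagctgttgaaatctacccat

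No window of SLC25A28, ACO1, TFRC or the other members held either core, which says only that these letters are not in these windows.

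In order of level per length, the untreated cells had FTL highest, then FTH1, NCOA4, TFRC, SLC25A37, ACO1, IREB2, SLC25A28, HEPH and SLC40A1, and the only neighbours whose libraries overlapped were HEPH and SLC40A1. After IFNβ the order below NCOA4 was SLC25A37, TFRC, SLC25A28, IREB2, ACO1, HEPH and SLC40A1, with no overlap between neighbours. ACO1 thus moved below IREB2 and SLC25A28 moved above both. The order rests on the gene lengths the authors used, which for TFRC (at least 17376 bases, against 7887 in release 29), SLC25A28 (at least 3416 against 1755) and HEPH (at least 9888 against 7113) were longer than in release 29 and lower their FPKM. The ratio of a gene's FPKM between groups does not depend on the length, but its fold change on log2(FPKM + 0.1) does where the level is low, as for HEPH.

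The genes whose levels followed ACO1 most closely over the 6 libraries were UTP15, RAC2 and PPM1F, with Pearson's r of 0.9995, 0.9994 and 0.9994 on log2(FPKM + 0.1). All 6 libraries share only 2 conditions, and 1810 of 11996 genes with a mean of at least 1 FPKM had an r above 0.95, so the likeness is that of many genes lower after IFNβ. Their log2 fold changes were smaller than that of ACO1, at -0.22 for UTP15, -0.14 for RAC2 and -0.56 for PPM1F.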

How the data were processed

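FPKM values were computed by the authors and deposited as 1 value per Ensembl gene and library, with no pooling. The submitters' processing notes name fastp, HISAT2, StringTie and GRCh38. The annotation, gene lengths and use of strand are not given in the sources used here. The study's own differential test needs counts, which this table does not hold. The labels name human IFNβ, and the study's sequencing methods name mouse IFNβ.

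Fragments per library, and per gene, were recovered by finding, for each gene, the lowest set of integers proportional to its FPKM (or the multiple matching the release 29 exon length within 2%), and were found for all 35303 genes above 0. For a transcript of 1 kb, 1 fragment is worth 0.0304 to 0.0438 FPKM depending on the library, which limits precision for low genes. Libraries of a group differed by more than counting error (chi-square per degree of freedom 1.90 to 4.07), so none was listed more than once.

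Groups were compared by limma 3.58.1 (R 4.3.3) on log2(FPKM + 0.1), with an intensity trend in eBayes and no covariate. Adjusted p-values of genes come from this fit, Benjamini-Hochberg adjusted over 20716 genes, except where an alternative setting is named. Fold changes on this scale understate those of low genes. The procedure was tested on simulated data. Ratios were compared by exact permutation tests, with Benjamini-Hochberg adjustment over the 4 ratios. Locations come from GENCODE release 29 (GRCh38), in which 4436 of the table's IDs are missing. Python 3.11.15, pandas 2.3.3, numpy 2.4.6 and matplotlib 3.10.9 were used for the rest.

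The members and lists were chosen with earlier results of these data known. Named are the members, the tested IRE mRNAs, in each list the DEGs and the largest called rise and fall, the 3 genes most correlated with ACO1, FBXL5 and CIAO2A. STEAP2, STEAP3, CYBRD1, SLC39A14, SLC39A8 and PCBP1 were named after their values were seen. Alternatives were other pseudocounts, filters, scalings and thresholds, no trend, limma-voom, a replicate block and each library left out. A few genes of the lists are not reported here and are left out of the lists' counts.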

Additional observations from a re-analysis of the deposited data

How the results depend on the processing

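ACO1 and SLC25A28 were DEGs under all 16 alternatives that gave them a value, with log2 fold changes from -1.20 to -1.08 and from 1.5 to 1.72. TFRC was called lower in all 16, from -0.99 to -0.91. HEPH ranged from 0.57 to 2.30 with the pseudocount and the tool, and was a DEG in 14 of 15. IREB2 and SLC25A37 were not called in any of their 16, from -0.06 to -0.0093 and from -0.09 to -0.03. The sign of uncalled values turned for FTH1 (0.0038 rescaled by median ratio, and from -0.076 to 0.0216 with a library left out, above 0 only without the first untreated one) and SLC40A1 (-0.0641 after quantile normalization). Leaving out a library left 3 members called higher and 2 lower each time, and between 18 and 24 pathway genes called lower.

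Libraries carry replicate numbers in their titles, but the deviations of same-numbered libraries correlated at only 0.014, 0.0228 and 0.0307 over genes, all under the limit of 0.1 for pairing, though above the highest value for different numbers (0.00577). With the replicate number as a block, 3 members were called higher, 2 lower and 3 were DEGs, and 5 and 20 pathway genes were called higher and lower. Low depth limits SLC40A1, and exact tests of 3 against 3 libraries cannot go below 0.1.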
